A study of Mus musculus with 45 samples.

Results

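Coinhibitory receptors and their ligands were examined as 10 genes of the 55450 in the deposited table. The genes were chosen by symbol: Pdcd1 (PD-1), Ctla4, Lag3, Tigit, Btla, Cd200, Cd160, Tnfrsf14 (HVEM), Cd274 (PD-L1) and Pdcd1lg2 (PD-L2), each with 1 row. RNA-sequencing covered 45 libraries of lymphocytes sorted from the draining popliteal lymph nodes of mice immunized in the hind footpad with 20 µl of an emulsion of Freund's incomplete adjuvant holding 50 µg ovalbumin and 5 µg lipopolysaccharide. The mice were S1PR4-/- (strain B6.129P2-S1pr4tm1Dgen/J, with 10 or more backcrosses onto C57/BL6) and their WT littermates, of both sexes and aged 8 to 12 weeks. All 8 groups came from immunized nodes. Tfh cells (TCRβ+ CD4+ PD1+ CXCR5+) and non-Tfh cells (TCRβ+ CD4+ PD1- CXCR5-) were sorted on day 6, with 6 libraries from each genotype. GC B cells (B220+ GL7+ Fas+, 6 libraries from each genotype) and non-GC B cells (B220+ GL7- Fas-, 5 WT and 4 S1PR4-/- libraries) were sorted on day 9. T cells and B cells therefore differ in lineage and in day, which cannot be told apart.

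Coinhibitory receptors are membrane proteins that dampen activation of the cell that carries them when they meet a ligand on a neighbouring cell. PD-1 binds PD-L1 and PD-L2, CTLA-4 competes with CD28 for CD80 and CD86, BTLA and CD160 both bind HVEM, TIGIT binds CD155, LAG-3 binds MHC class II, and CD200 engages a receptor on myeloid cells. In germinal centres, Tfh cells are known for high PD-1, and GC B cells receive their help through contacts in which these proteins sit on both sides.

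Each library held between 26299429 and 45548215 expected counts. S1pr4, the deleted gene, had 505 to 6305 counts in the 23 WT libraries and 0 to 40 in the 22 S1PR4-/- libraries. The sorted lineages carried their markers: Cd3e, a chain of the T cell receptor complex, averaged 697 to 869 CPM in the T cell groups and at most 0.367 CPM in the B cell groups. CPM are counts scaled to library size with TMM factors. Tfh libraries held B cell transcripts, and the mean log2 CPM of 12 B cell markers was 2.93 ± 1.52 in WT and 0.39 ± 1.70 in S1PR4-/- Tfh cells, against 0.13 ± 1.13 and -1.37 ± 0.67 in non-Tfh cells (SD over 6 libraries). Transcripts of CD8 T and NK cells were raised in 5 of the 9 non-GC B libraries, WT replicates 4 and 5 and S1PR4-/- replicates 2, 3 and 4, where the mean log2 CPM of 7 such markers lay between 0.29 and 2.80, against -3.59 to -2.62 in the other 4. The same 5 libraries held more dendritic cell transcripts, with a score of 5 markers between -0.08 and 1.33, against -1.60 to -0.98 in the other 4. Plasma cell markers varied among GC B libraries, from 5.53 to 9.10 in S1PR4-/- and from 6.76 to 8.28 in WT. The part of these cells in the members' values was not tested except as given beside each result, and in bulk samples fewer cells of a type and less RNA per cell cannot be told apart.

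The members lie on 6 chromosomes (mm10, GENCODE M21), and 2 pairs are neighbours. Btla (chr16:45224315-45257670, plus strand) and Cd200 (chr16:45382135-45409053, minus strand) are 124.5 kb apart, and Cd274 (chr19:29367455-29388095) and Pdcd1lg2 (chr19:29410919-29471161), both on the plus strand, are 22.8 kb apart. The promoter windows of Btla, Cd200 and Cd274 are shown because these 3 genes were lower in GC B cells while Btla and Cd200 were higher in Tfh cells, as described further on. Each window runs from 250 bases before to 50 bases after the start in RefSeq (GRCm38.p6), 5′ to 3′ on the gene's strand, at chr16:45224087-45224386 for Btla, chr16:45409004-45409303 for Cd200 and chr19:29367188-29367487 for Cd274. Capitals mark matches on either strand to GGAAA, the core letters of NFAT sites, to TGANTCA, those of AP-1 sites, or to TTCNNNGAA, those of STAT and BCL6 sites.
Btla: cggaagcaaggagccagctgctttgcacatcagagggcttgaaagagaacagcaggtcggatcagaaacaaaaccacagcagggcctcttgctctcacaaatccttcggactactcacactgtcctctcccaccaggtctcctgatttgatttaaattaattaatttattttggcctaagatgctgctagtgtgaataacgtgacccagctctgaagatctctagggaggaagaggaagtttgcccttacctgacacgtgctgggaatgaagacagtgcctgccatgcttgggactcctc
Cd200: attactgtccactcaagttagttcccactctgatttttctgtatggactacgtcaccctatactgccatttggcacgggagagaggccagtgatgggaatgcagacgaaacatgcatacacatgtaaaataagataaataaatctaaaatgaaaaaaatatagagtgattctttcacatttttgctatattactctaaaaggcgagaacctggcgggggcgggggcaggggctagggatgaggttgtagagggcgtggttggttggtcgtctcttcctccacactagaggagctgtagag
Cd274: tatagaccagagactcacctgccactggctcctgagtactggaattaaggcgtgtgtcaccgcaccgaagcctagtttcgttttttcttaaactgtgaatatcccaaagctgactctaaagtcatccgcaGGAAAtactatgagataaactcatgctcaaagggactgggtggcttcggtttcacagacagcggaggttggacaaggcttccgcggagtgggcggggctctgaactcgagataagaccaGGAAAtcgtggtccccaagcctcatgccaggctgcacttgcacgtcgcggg
The Cd274 window held GGAAA at 2 places, and the Btla and Cd200 windows held none of the 3 motifs. GGAAA occurs in 61.3% of all 32851 promoter windows of this length, TGANTCA in 7.81% and TTCNNNGAA in 8.3%. Windows were found for 9 of the 10 members, and GGAAA was also in those of Pdcd1, Ctla4, Tigit, Tnfrsf14 and Pdcd1lg2 and in 1 of the 2 windows of Cd160.

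In WT nodes the members fell into 2 kinds by where they were highest. Pdcd1, Ctla4, Lag3, Tigit, Cd160 and Tnfrsf14 were highest in Tfh cells, and for these 6 genes no Tfh library overlapped a library of the next group. Btla, Cd200, Cd274 and Pdcd1lg2 were highest in non-GC B cells, where Btla and Cd274 did not overlap the next group and Cd200 and Pdcd1lg2 did. The share of all genes that separate in this way was not counted, so the lack of overlap is only a description. Per kb of exon, the Tfh cells held mostly Pdcd1 (342 ± 36.3 CPM per kb), followed by Tigit (127 ± 19.4), Btla (73.0 ± 13.2) and Ctla4 (69.3 ± 13.6; SD, n = 6). Non-GC B cells held mostly Btla (150.5 ± 36.1 CPM per kb), followed by Cd200 (45.8 ± 14.7) and Cd274 (16.2 ± 1.81; SD, n = 5). Btla was also first in non-Tfh and GC B cells, at 36.7 ± 5.93 and 64.7 ± 13.9 CPM per kb (SD, n = 6). Tnfrsf14, the ligand of BTLA and CD160, had mean levels of 0.34 to 3.37 CPM over all 8 groups and at most 168 counts in any library.

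**Figure D1:**
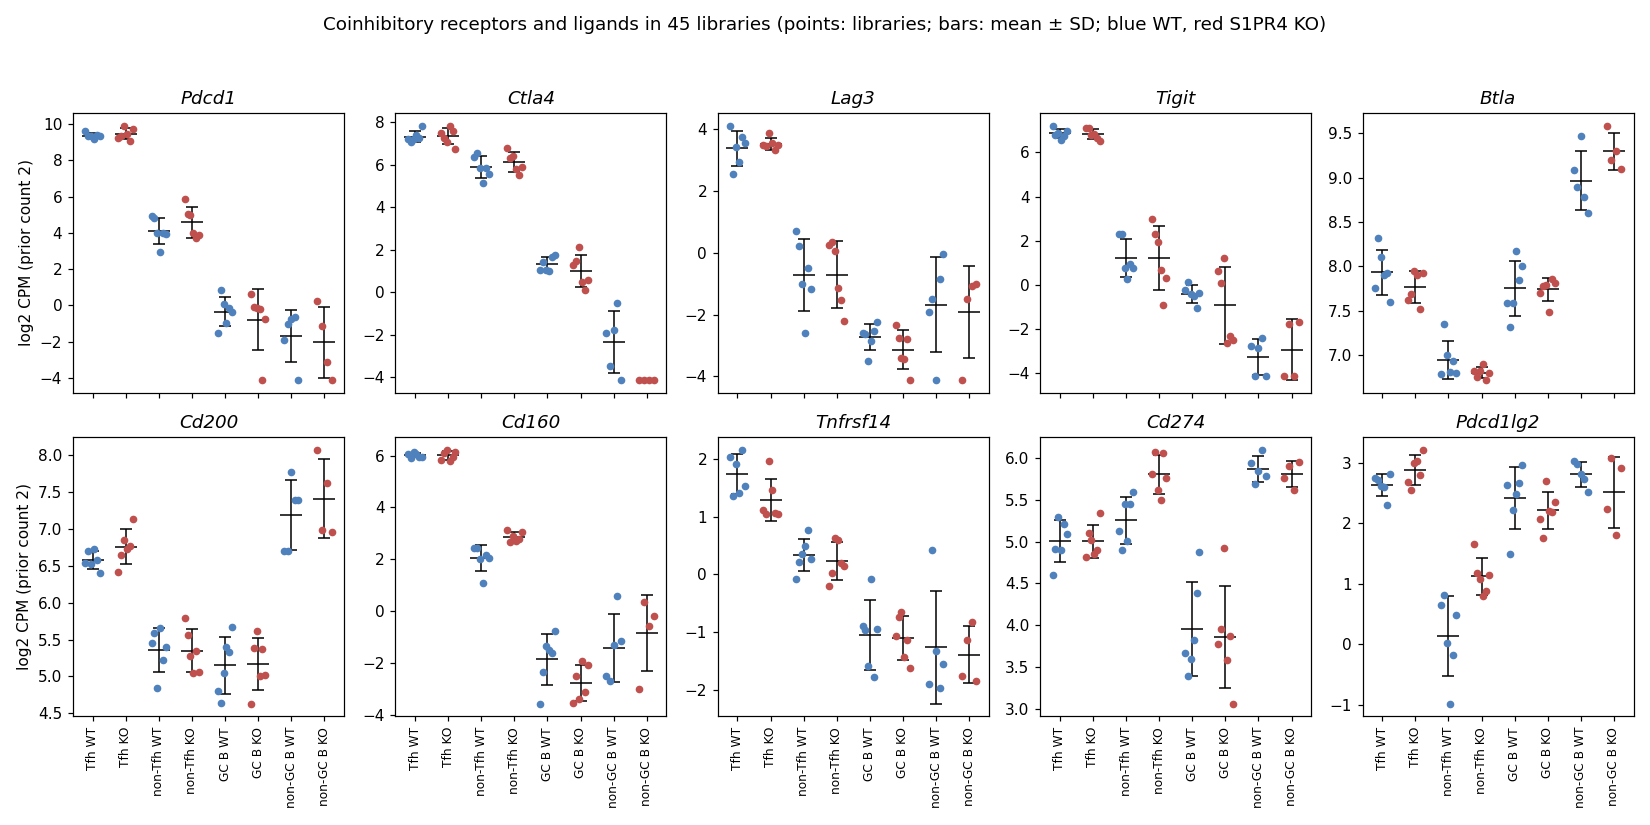
Each panel shows 1 gene in the 8 groups, with the normalized level in log2 CPM on the vertical axis. Points are libraries (blue WT, red S1PR4-/-, marked KO on the axis), and bars are the mean and SD. Mean levels of Pdcd1, Ctla4, Lag3, Tigit and Cd160 were highest in Tfh cells, whereas those of Btla, Cd200 and Cd274 were highest in non-GC B cells.

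The first comparison asked how the members differ between Tfh and non-Tfh cells of the same genotype. In WT mice all 9 members other than Cd274 were higher in Tfh cells, and the median log2 fold change of the 10 was 1.95, against 0.00 over all 13481 genes tested. Of all genes tested, 22.8% were higher and 20.4% lower by the same rule, an FDR under 0.05 with a fold change over 1.5. In S1PR4-/- mice 9 were higher and Cd274 was lower, beside 22.3% higher and 21.1% lower among all genes. PD-1 protein was part of the gate, so the difference in Pdcd1 describes the sort and is no finding. The adjusted p-values that follow come from edgeR's quasi-likelihood test with Benjamini-Hochberg adjustment over all genes tested.

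Among the receptors, Tigit, whose product competes with the costimulator CD226 for CD155, had the largest log2 fold change in both genotypes. It ran from 94.3 through a median of 113.5 to 146.9 CPM in WT Tfh cells and from 1.14 through 1.76 to 4.95 CPM in non-Tfh cells. The groups did not overlap, and the log2 fold change was 5.45 (SE, the standard error, 0.32, adjusted p = 2.24e-09). In S1PR4-/- mice it was 5.15 (SE 0.46, adjusted p = 2.50e-07). Pdcd1 ran from 573.9 through 647.1 to 787.7 CPM in WT Tfh cells and from 7.63 through 15.8 to 30.7 CPM in non-Tfh cells, a log2 fold change of 5.13 (SE 0.28) that the gate had selected for.

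Lag3, which binds MHC class II, was a low-abundance transcript. It lay between 5.84 and 17.1 CPM (median 11.1) in WT Tfh cells and between 0.106 and 1.56 CPM (median 0.548) in non-Tfh cells. All 12 libraries kept to their side, with a log2 ratio of 3.95 (SE 0.45, adjusted p = 2.18e-06), and 4.06 (SE 0.38, adjusted p = 3.23e-07) in S1PR4-/- mice. Cd160, a glycolipid-anchored receptor for HVEM best known from NK and CD8 T cells, lay between 60.5 and 70.2 CPM (median 64.2) in WT Tfh cells and between 2.07 and 5.37 CPM (median 4.29) in non-Tfh cells. It was the least variable member within Tfh cells of WT mice, and its log2 fold change was 3.94 (SE 0.17, adjusted p = 1.27e-10). Markers of CD8 T and NK cells were also higher in WT Tfh libraries, where the 7 markers summed to 61.6 to 110 CPM, against 30.3 to 41.2 CPM in non-Tfh libraries. Klrb1c (51.7 against 1.78 CPM) had the largest difference, while Cd8b1 was lower (11.8 against 20.7 CPM) and Ncr1, a defining marker of NK cells, was near 0 in both (0.114 and 0.105 CPM). The part of such cells in the Cd160 and Lag3 values was not tested.

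Ctla4, the inhibitor of CD28 costimulation that regulatory T cells also carry, ran from 134.7 through 149.7 to 222.7 CPM in WT Tfh cells and from 34.7 through 57.8 to 91.7 CPM in non-Tfh cells. The groups did not overlap, although the difference was smaller than for the receptors above, with a log2 fold change of 1.38 (SE 0.20, adjusted p = 2.45e-05). In S1PR4-/- mice it was 1.21 (SE 0.20, adjusted p = 1.13e-04), and there the lowest Tfh library (107.5 CPM) lay below the highest non-Tfh library (108.1 CPM). Foxp3, the defining factor of regulatory T cells, was at 129 ± 34.1 CPM in WT Tfh and 137 ± 33.9 CPM in WT non-Tfh cells (SD, n = 6). The score of 5 regulatory T cell markers was 5.26 ± 0.27 and 5.68 ± 0.44. Of the other markers, Il2ra was at 83.8 and 84.4 CPM and Ikzf2 at 39.98 and 19.9 CPM. Ikzf4 was at 10.8 and 27.6 CPM and Lrrc32 at 19.8 and 68.7 CPM. The part of regulatory T cells in the Ctla4 difference was not tested.

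Btla and Cd200 were expressed in both T cell populations and shifted by a few fold. Btla, an inhibitory receptor of T and B cells, ran from 194.5 through 241.4 to 320.5 CPM in WT Tfh cells and from 110.8 through 117.4 to 163.4 CPM in non-Tfh cells. Its log2 fold change was 0.99 in both genotypes (SE 0.12 and 0.08, adjusted p = 4.93e-06 in WT and 4.76e-08 in S1PR4-/- mice). Cd200, a membrane glycoprotein that restrains myeloid cells through its receptor, ran from 84.4 through 94.2 to 106.0 CPM in WT Tfh cells and from 28.7 through 42.9 to 50.2 CPM in non-Tfh cells. No libraries overlapped for either gene, and the log2 fold change of Cd200 was 1.20 (SE 0.12, adjusted p = 3.58e-07) in WT and 1.42 (SE 0.14, adjusted p = 4.98e-07) in S1PR4-/- mice. B cells carry both genes. The 12 B cell markers summed to 149 to 477 CPM in WT Tfh and 14.1 to 53.4 CPM in WT non-Tfh libraries. In WT non-GC B libraries they summed to 16300 to 17200 CPM. Of these sums, Cd22 made up a mean of 179.3 CPM in WT Tfh and 8.17 CPM in WT non-Tfh libraries. The part of B cells in the Btla and Cd200 differences was not tested.

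The ligands divided. Pdcd1lg2, which encodes PD-L2, was higher in Tfh cells at 4.89 to 6.97 CPM (median 6.28), against 0.45 to 1.71 CPM (median 1.15) in WT non-Tfh cells. The groups were apart, with a log2 fold change of 2.45 (SE 0.26, adjusted p = 1.10e-06) in WT and 1.79 (SE 0.17, adjusted p = 4.68e-07) in S1PR4-/- mice. Scores of dendritic cell markers (0.02 against -1.95) and of monocyte and macrophage markers (0.51 against -0.71) were higher in WT Tfh libraries as well, as was that of B cells, and the part of these cells was not tested. Tnfrsf14 was higher as well at its low level, with 2.51 to 4.44 CPM (median 3.29) against 0.893 to 1.65 CPM (median 1.18), a log2 fold change of 1.46 (SE 0.22, adjusted p = 2.68e-05). Cd274, which encodes PD-L1, was the exception, at 24.2 to 39.2 CPM (median 32.1) in WT Tfh and 29.7 to 48.3 CPM (median 39.1) in WT non-Tfh cells. These ranges overlapped, and the log2 fold change of -0.25 (SE 0.14, adjusted p = 0.109) did not pass. In S1PR4-/- mice, Cd274 lay between 28.1 and 40.4 CPM in Tfh and between 45.2 and 67.4 CPM in non-Tfh cells, without overlap and with a log2 fold change of -0.79 (SE 0.12, adjusted p = 3.23e-05). The difference between these shifts was tested as an interaction and did not pass (-0.56 on the log2 scale, SE 0.19, adjusted p = 0.362). Cd274 shares 511 exon bases, 14.1% of its exons, with the antisense gene AC119228.1, and its expected counts were not whole in 39 of 45 libraries.

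**Figure D2:**
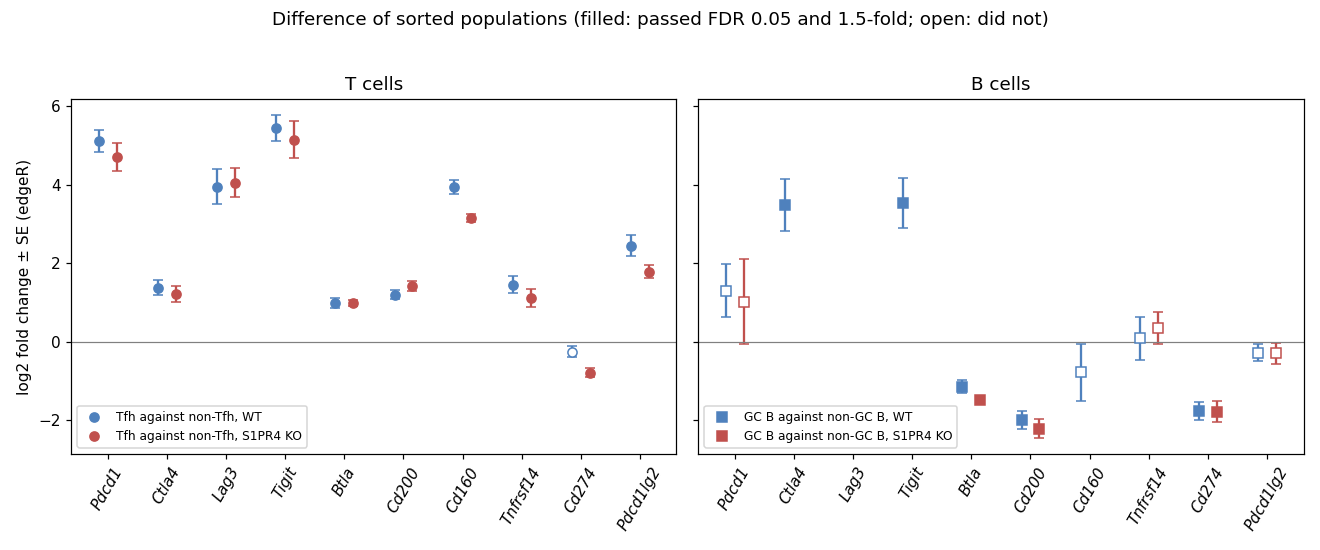
The vertical axis gives the log2 fold change with its standard error from edgeR, Tfh over non-Tfh on the left and GC B over non-GC B on the right. Blue is WT and red S1PR4-/-, filled points passed both thresholds and open points did not, and members below the filter on low counts, as well as Ctla4 in S1PR4-/- B cells with all non-GC B libraries at 0, have no point. Btla and Cd200 were above 0 in T cells and below 0 in B cells.

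The second comparison set GC B cells against non-GC B cells. In WT mice 9 members passed the filter on low counts (Lag3 did not), of which 3 were lower, 2 were higher and 4 did not pass the test, and the median log2 fold change of the 9 was -0.28, against 0.00 over all genes. Among all genes tested, 24.8% were higher and 23.1% lower. In S1PR4-/- mice 7 members were tested, with 3 lower and 1 higher, beside 25.3% higher and 22.9% lower among all genes. The 3 lower genes were Btla, Cd200 and Cd274 in either genotype.

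Btla was at 545, 474.9, 705.9, 439.5 and 389.8 CPM in the 5 WT non-GC B libraries and 159.6 to 288.3 CPM (median 211.3) in WT GC B cells. It did not overlap, and its log2 fold change was -1.16 (SE 0.17, adjusted p = 5.24e-05) in WT and -1.501 (SE 0.10, adjusted p = 2.74e-07) in S1PR4-/- mice. Even so, the level in GC B cells was close to that in Tfh cells, at 219.8 ± 47.3 against 248.1 ± 44.7 CPM (SD, n = 6), with overlapping ranges. Cd200 was at 103.6, 103.9, 218.1, 166.6 and 167.7 CPM in the WT non-GC B libraries and lay between 24.9 and 51.0 CPM (median 36.7) in WT GC B cells, without overlap. Its log2 fold change was -1.996 (SE 0.22, adjusted p = 5.70e-06) in WT and -2.22 (SE 0.24, adjusted p = 9.11e-06) in S1PR4-/- mice.

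Cd274, the broadly expressed ligand of PD-1, was lower in GC B cells too. The WT non-GC B libraries held 61.1, 51.4, 57.5, 68.6 and 55.1 CPM and the WT GC B libraries 10.5 to 29.4 CPM (median 13.4). The groups were apart, with a log2 fold change of -1.76 (SE 0.23, adjusted p = 2.47e-05) in WT and -1.79 (SE 0.28, adjusted p = 1.62e-04) in S1PR4-/- mice. Pdcd1lg2, the other ligand of PD-1, lay between 2.76 and 7.76 CPM in WT GC B and between 5.65 and 8.09 CPM in WT non-GC B cells. Its ranges overlapped, and the difference of -0.28 (95% interval -0.72 to 0.15, adjusted p = 0.271) did not pass. The antisense gene at Cd274 had a mean of at most 0.41 CPM in every group.

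Ctla4 and Tigit were higher in WT GC B cells at levels far below those of T cells. Ctla4 ran from 1.97 through 2.31 to 3.36 CPM in WT GC B cells, and the 5 non-GC B libraries held 0.210, 0.0328, 0.236, 0.657 and 0 CPM. The groups did not overlap, and the log2 fold change was 3.49 (SE 0.67, adjusted p = 4.83e-04), or 4.34 without non-GC B replicate 4. In S1PR4-/- mice, Ctla4 was at 1.02 to 4.29 CPM (36 to 118 counts) in GC B cells and at 0 counts in all 4 non-GC B libraries, which is at least 23.1-fold higher when each of those libraries is set to a floor of 3 counts. Tigit ran from 0.424 through 0.703 to 1.05 CPM in WT GC B cells, from 11 to 30 counts. In WT non-GC B cells it ran from 0 to 0.131 CPM (log2 fold change 3.54, SE 0.63, adjusted p = 2.78e-04). In S1PR4-/- mice Tigit did not pass the filter on low counts and was not tested. There it lay between 0.105 and 2.25 CPM in GC B and between 0 and 0.251 CPM in non-GC B cells, with overlap.

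Markers of other cells were read beside these low levels. Trac, the constant chain of the T cell receptor, was at 0.597 ± 0.384 CPM in WT GC B (n = 6) and 0.551 ± 0.217 CPM in WT non-GC B cells (SD, n = 5). Means of Cd28 (22.2 against 1.09 CPM), Lck (115.3 against 97.2) and Lat (3.21 against 2.22) were higher in GC B cells. So were Cd5 (1.57 against 0.792 CPM) and Thy1 (0.156 against 0.0826). Those of Cd4 (1.11 against 3.09 CPM), Zap70 (0.820 against 2.99) and Cd6 (0.494 against 0.749) were lower. In WT GC B cells Cd3e, Cd3d and Cd3g were at 0.189 to 0.239 CPM, and in non-GC B cells at 0.172 to 0.267. The score of 12 T cell markers was 0.13 ± 0.48 and -0.36 ± 0.67, and the 5 markers of regulatory T cells summed to 21.5 to 36.2 CPM and 1.86 to 5.26 CPM. Most of the sum in GC B cells was Lrrc32, at 24.65 CPM against 0.378 CPM in non-GC B cells. The other 4 were Il2ra (1.90 and 2.17 CPM), Ikzf4 (0.320 and 0.290), Foxp3 (0.201 and 0.069) and Ikzf2 (0.0457 and 0.165). The part of T cells in the Ctla4 and Tigit values was not tested. Among S1PR4-/- GC B libraries, both genes were higher in the 3 with the higher scores of 6 plasma cell markers. The score was 7.63, 8.19, 9.10, 5.53, 6.14 and 5.63 in replicates 1 to 6, where Tigit was at 1.47, 0.992, 2.25, 0.105, 0.142 and 0.119 CPM and Ctla4 at 2.36, 2.71, 4.29, 1.32, 1.02 and 1.45 CPM. In WT GC B libraries the highest score, 8.28 in replicate 2, went with the highest Tigit (1.05 CPM), but Ctla4 was highest in replicates 6 and 5 (3.36 and 3.08 CPM) at scores of 7.23 and 6.88. The part of plasma cells in these values was not tested.

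Lag3, Cd160, Pdcd1 and Tnfrsf14 were near the limit of detection in B cells. Cd160 ran from 0.0983 to 1.45 CPM in WT non-GC B libraries, and its highest value was in replicate 4, the library with the highest score of CD8 T and NK cell markers (2.80). Replicate 5, at a score of 1.94, held 0.391 CPM, close to the 0.342 CPM of replicate 3 at a score of -2.62. Lag3 was highest in replicates 5 and 4, at 0.924 and 0.493 CPM. In the S1PR4-/- non-GC B libraries with raised scores Cd160 was at 0.618, 0.815 and 1.22 CPM, against 0.0677 CPM in the other library. Pdcd1 had a mean of 0.837 CPM in WT GC B and 0.351 CPM in WT non-GC B cells, with overlapping ranges and a log2 fold change of 1.3 that did not pass (adjusted p = 0.103, edgeR's quasi-likelihood test). Tnfrsf14 had means of 0.465 and 0.462 CPM.

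**Figure D3:**
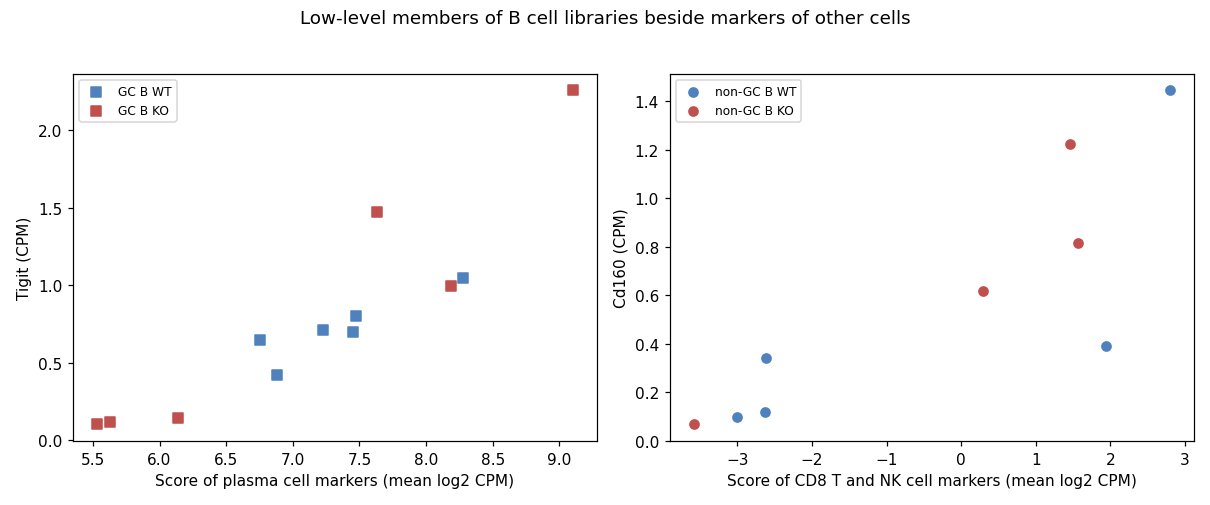
The left panel plots Tigit (CPM) against the mean log2 CPM of 6 plasma cell markers in 12 GC B libraries, and the right panel plots Cd160 (CPM) against that of 7 CD8 T and NK cell markers in 9 non-GC B libraries. Points are libraries (blue WT, red S1PR4-/-), and the highest Tigit value, 2.25 CPM, is in the library with the highest plasma cell score, 9.10.

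Whether the shift from bystander to germinal centre cell differed between T and B cells was tested in WT mice, as the difference of the log2 fold changes. Of the 10 members 9 passed this test at an FDR under 0.05, which 41.7% of all 15101 genes also did, 8 with a higher shift in T cells and Ctla4 with a lower one. Pdcd1 is set aside because of the gate. Btla and Cd200 moved in opposite directions, up in Tfh and down in GC B cells. Their differences were 2.21 (SE 0.22, adjusted p = 3.81e-08) and 3.25 (SE 0.26, adjusted p = 1.36e-09, edgeR's quasi-likelihood test).

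The shift was also higher in T cells for the ligands of PD-1, Cd274 by 1.57 (SE 0.28, adjusted p = 1.11e-04) and Pdcd1lg2 by 2.80 (SE 0.36, adjusted p = 1.21e-06). Cd160 differed by 4.78, or 3.80 without WT non-GC B replicate 4, and Lag3 by 5.85, or 5.23 without WT non-GC B replicate 5. Lag3 had not passed the filter on low counts in B cells by themselves, and entered this test with the T cell libraries included. Its shift in B cells rests on 1 to 5 counts per WT GC B library and 0 to 26 per WT non-GC B library. Ctla4 differed by -2.03, or -2.84 without WT non-GC B replicate 4. For Tnfrsf14 the difference of 1.43 (adjusted p = 0.0434 by edgeR's quasi-likelihood test) rested on low counts, and without WT non-GC B replicate 2, which held 1.28 CPM against 0.197 to 0.342 CPM in the other 4, it was 0.61 (adjusted p = 0.288). It also missed the threshold, at an adjusted p of 0.0503 to 0.0717, without any single one of 13 other WT libraries, namely Tfh replicates 1, 3 and 5, non-Tfh replicates 1, 2, 3, 4 and 6, and GC B replicates 1, 2, 3, 5 and 6. Tigit did not pass (1.98, SE 1.01, adjusted p = 0.124).

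The third comparison asked what changed in the members without S1PR4. None passed in any of the 4 populations by edgeR's quasi-likelihood test. In Tfh cells 0 of 10 tested members changed, beside 0.496% of all genes. There 1 member had an unadjusted p under 0.05, as did 2586 of all 13495 genes. In non-Tfh cells 0 of 10 changed, beside 0.114% of all genes. There 3 members had an unadjusted p under 0.05, as did 1486 of all 13197 genes. In GC B cells it was 0 of 8 tested (0.0612% of all genes) and in non-GC B cells 0 of 8 (0.0537%). In either, 0 members had an unadjusted p under 0.05, beside 540 of 13070 and 593 of 13038 genes. By DESeq2 the counts were also 0, except for 1 member in non-Tfh cells.

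In Tfh cells the genotypes had overlapping ranges for all 10 members. Pdcd1 was at 660.3 ± 70.1 CPM in WT and 716.5 ± 153.5 CPM in S1PR4-/- cells, Tigit at 116.7 ± 17.9 and 115.4 ± 19.2 CPM, and Cd160 at 64.8 ± 3.66 and 64.4 ± 7.87 CPM (SD, n = 6 each). Over the 9 members other than Tnfrsf14, the 95% intervals of the log2 fold change lay within -0.41 to 0.52. Tnfrsf14 had a log2 fold change of -0.46 (SE 0.22, adjusted p = 0.261, edgeR), at 3.37 ± 0.82 CPM in WT and 2.46 ± 0.73 CPM in S1PR4-/- Tfh cells (SD, n = 6). With the score of B cell markers, which was higher in WT, as a covariate, it was -0.18 (adjusted p = 0.86, edgeR). Because the score itself differed by genotype, this fit cannot separate its part from that of genotype. Tnfrsf14 had means of 0.465 CPM in WT GC B and 0.462 CPM in WT non-GC B cells, and the part of B cells was not tested otherwise.

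In non-Tfh cells the 3 members with an unadjusted p under 0.05 were Cd160, Cd274 and Pdcd1lg2. Cd160 lay between 2.07 and 5.37 CPM (median 4.29) in WT and between 6.30 and 8.73 CPM (median 7.09) in S1PR4-/- cells. No library overlapped, yet over all genes the log2 fold change of 0.79 (SE 0.19) had an adjusted p of 0.105 from edgeR's quasi-likelihood test. DESeq2 gave the same log2 fold change with an adjusted p of 0.00652, and over all alternatives the adjusted p ran from 0.00652 to 0.533.

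Cd274 lay between 29.7 and 48.3 CPM (median 39.1) in WT and between 45.2 and 67.4 CPM (median 55.1) in S1PR4-/- non-Tfh cells. The ranges overlapped in 1 S1PR4-/- library, at 45.2 CPM, and the log2 fold change was 0.55 (SE 0.13, adjusted p = 0.105, edgeR). Pdcd1lg2 lay between 0.45 and 1.71 CPM (median 1.15) in WT and between 1.68 and 3.10 CPM (median 2.11) in S1PR4-/- cells, with a log2 fold change of 0.94 (SE 0.29, adjusted p = 0.219, edgeR). Foxp3 was at 137 ± 33.9 CPM in WT and 188.7 ± 41.8 CPM in S1PR4-/- non-Tfh cells (SD, n = 6). Its ranges overlapped (72.2 to 166.8 and 140 to 245.3 CPM), and it did not pass by edgeR's quasi-likelihood test. The score of 5 regulatory T cell markers was 5.68 ± 0.44 and 6.03 ± 0.25, and Ikzf2, which is among them, was at 19.88 and 19.87 CPM. The score of B cell markers was 0.13 ± 1.13 in WT and -1.37 ± 0.67 in S1PR4-/- non-Tfh cells (SD, n = 6). With that score as a covariate the log2 fold changes were 0.61 for Cd160 (adjusted p = 0.533), 0.72 for Cd274 (adjusted p = 0.2) and 0.57 for Pdcd1lg2 (adjusted p = 0.731, edgeR). The score differed by genotype here too, so this fit cannot separate its part from that of genotype. The part of regulatory cells was not tested.

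**Figure D4:**
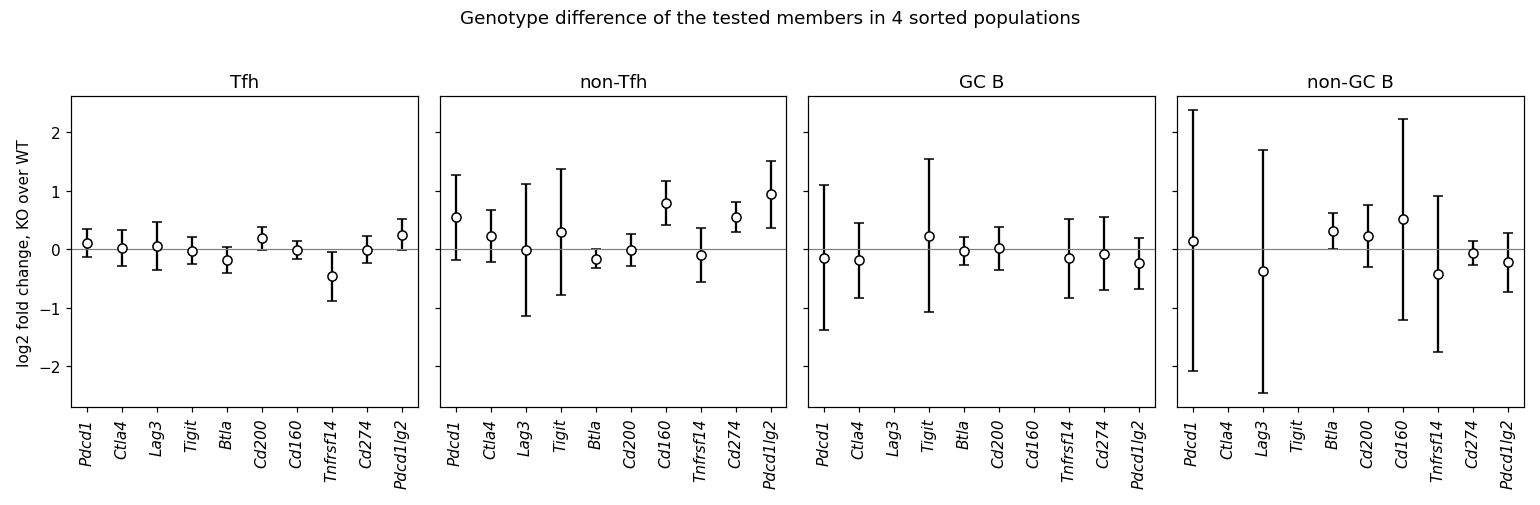
Points are log2 fold changes of S1PR4-/- over WT cells with their 95% intervals, for the members tested in each population. No member passed the threshold. In non-Tfh cells the intervals of Cd160 (0.42 to 1.17), Cd274 (0.29 to 0.80) and Pdcd1lg2 (0.37 to 1.502) did not include 0.

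Within the PD1- gate, receptor transcripts varied among libraries of either genotype. Pdcd1 was at 30.7, 28.2, 15.98, 7.63, 15.7 and 15.3 CPM in WT replicates 1 to 6 and at 58.4, 32.5, 31.3, 15.9, 13.2 and 14.7 CPM in S1PR4-/- replicates 1 to 6. In the same libraries Tigit was at 4.95, 4.82, 1.66, 1.14, 1.87 and 1.64 CPM in WT and at 7.75, 4.92, 3.74, 1.57, 0.479 and 1.19 CPM in S1PR4-/- cells. Both transcripts were highest in replicates 1 and 2 of WT and in replicates 1, 2 and 3 of S1PR4-/- cells. Scores of 7 Tfh markers, which do not include the members, ran 3.26, 3.00, 2.93, 2.23, 2.82 and 2.65 across the WT libraries and 3.84, 3.64, 3.26, 2.65, 2.46 and 2.55 across the S1PR4-/- libraries. Scores in Tfh libraries lay above all of these, with means of 7.66 in WT and 7.78 in S1PR4-/- mice. The part of Tfh cells within the non-Tfh gate was not tested.

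In B cells the width of the 95% interval of the log2 fold change between genotypes varied among members. Btla in GC B cells was at 219.8 ± 47.3 CPM in WT and 214.6 ± 18.8 CPM in S1PR4-/- mice (SD, n = 6), with an interval from -0.27 to 0.20, and in non-GC B cells the interval ran from -0.0034 to 0.63. For Cd274 it ran from -0.27 to 0.15 in non-GC B cells, at 58.7 ± 6.54 CPM in WT (n = 5) and 56.3 ± 5.88 CPM in S1PR4-/- mice (SD, n = 4), but from -0.69 to 0.55 in GC B cells. For Cd200 it ran from -0.36 to 0.39 in GC B and from -0.30 to 0.76 in non-GC B cells. For Pdcd1 in non-GC B cells it ran from -2.08 to 2.38, so a difference was not detectable at these counts.

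Interactions tested whether genotype acted differently in germinal centre and bystander cells. In T cells 0 of 10 members passed, beside 0.0139% of all genes. An unadjusted p under 0.05 was found for 3 members and for 1325 of all 14401 genes. The interaction of Cd160 was -0.81 (SE 0.20, adjusted p = 0.175, edgeR), that of Cd274 is given above, and that of Pdcd1lg2 was -0.69 (SE 0.31, adjusted p = 0.506, edgeR). In B cells 0 of 10 passed by edgeR's quasi-likelihood test, 0% of all genes did, and 664 genes had an unadjusted p under 0.05, as did Ctla4, whose fitted value depends on the group with all libraries at 0 and is not given. These comparisons share libraries with the preceding ones, so their values are not independent.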

How the data were processed

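RNA was sequenced from 45 sorted samples in 8 groups (2 genotypes of 4 populations), and libraries were made with the Illumina Stranded Total RNA Prep with Ribo-Zero Plus. Per the submitters' processing notes and the methods, reads were trimmed (Cutadapt 2.10), aligned to mm10 (STAR 2.5.3), marked for duplicates (Picard) and quantified (RSEM 1.3.0). The authors deposited the expected counts per gene that RSEM gave, not scaled for depth or length, and 8.83% of the values are not whole. The strand setting of the counting is not given in the sources used here. The methods name another GENCODE release, but 55423 of the 55450 symbols are in M21, from which positions and exon lengths were taken.

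Groups and replicate numbers followed the labels, and the days of the sort came from the methods. The methods give 6 mice of each genotype for the sorts, but the labels tie no library to a mouse, and p-values measure the spread between libraries. Expected counts were rounded, filtered with filterByExpr, scaled by TMM and tested pairwise by edgeR's quasi-likelihood test (edgeR 4.0.16, R 4.3.3) over all genes, with standard errors derived from its F statistic, 95% intervals taken as normal, and Benjamini-Hochberg adjustment. Calls needed an FDR under 0.05 with a fold change above 1.5, or the FDR by itself in interactions. The code was tested on simulated data. Log2 CPM used a prior count of 2, and a marker score is the mean log2 CPM of its genes. DESeq2 1.42.0, DESeq2 size factors, no filter on low counts, a joint fit of all groups, a replicate block, marker scores as covariates and leaving out each library were alternatives. The labels do not say that same-numbered samples are paired, and these were correlated over 0.1 in only some pairs. The main tests therefore left samples unpaired, although many Tfh samples correlated best with the non-Tfh sample of their own number, as given below.

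All 10 members were described in every comparison. Related genes came from 4 lists (binding partners, signalling and trafficking, other inhibitory receptors, transcription factors), of which every gene past the thresholds was counted and the 3 with the largest change could be named. Genes alike were the 3 with the highest Pearson r over the 8 group means. Members, lists and tests were chosen with earlier results of these data known.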

Additional observations from a re-analysis of the deposited data

Results flagged for a closer look

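Libraries far from the others of their group were looked for in 79 combinations of gene and group, and 8 had one, where chance gives about 5%, or 1 in 20. In T cells these were Ctla4 at 222.7 CPM in WT Tfh replicate 6, Btla at 163.4 CPM in WT non-Tfh replicate 2, Lag3 at 14.7 CPM and Tnfrsf14 at 3.85 CPM in S1PR4-/- Tfh replicate 3, and Pdcd1lg2 at 3.10 CPM in S1PR4-/- non-Tfh replicate 1. In B cells they were Cd160 at 1.45 CPM in WT non-GC B replicate 4, Tnfrsf14 at 1.28 CPM in WT non-GC B replicate 2 and Cd274 at 30.2 CPM in S1PR4-/- GC B replicate 3, the library with the highest plasma cell score.

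The shift from bystander to germinal centre cell differed between WT T cells and WT B cells for 9 members in the test of the difference. On the log2 scale, T minus B, it was 3.96 for Pdcd1, a gene of the gate, 5.85 for Lag3, 4.78 for Cd160, 3.25 for Cd200, 2.80 for Pdcd1lg2, 2.21 for Btla, 1.57 for Cd274, 1.43 for Tnfrsf14 and -2.03 for Ctla4. The value of Lag3 rested in B cells on 1 to 5 counts per GC B library and 0 to 26 per non-GC B library. The value of Tnfrsf14 missed the threshold in 16 of 28 alternatives, among them 14 that left out 1 library, with an adjusted p of up to 0.288 (edgeR's quasi-likelihood test).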

How the results depend on the processing

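The counts of members changed kept within 1.5 times in all alternatives but 3. With all 8 groups in one fit, which tested Lag3, Tigit and Cd160 as well, 7 members in place of 4 changed in GC B against non-GC B cells of S1PR4-/- mice. With DESeq2, 1 member (Cd160) in place of 0 changed between genotypes in non-Tfh cells, and 1 (Cd160) in the interaction in T cells, and the cause was not tested. Same-numbered samples correlated over 0.1 in 2 of 6 WT and 3 of 6 S1PR4-/- pairs of Tfh and non-Tfh libraries, and each sample correlated best with its own number in 4 and 6 of them. For GC B and non-GC B libraries it was 1 of 5 WT and 0 of 4 S1PR4-/- pairs, with own numbers best in 4 and 0. The replicate block left 9, 10, 5 and 4 members changed between populations and 0 between genotypes, and took Tnfrsf14 below the threshold in the difference of shifts (1.32, adjusted p = 0.0996, edgeR). Without the filter on low counts the same value had an adjusted p of 0.0817 (edgeR). Tigit passed there only with DESeq2 (adjusted p = 0.00781). Of single values, none that passed changed direction. Leaving out 1 library took Tnfrsf14 in WT GC B against non-GC B cells from 0.09 to between -0.18 and 0.90, and Cd160 from -0.78 to between -1.05 and 0.21. Among 48 tested genotype and interaction values with an unadjusted p over 0.05, the sign changed in 117 alternatives of 31 values, and 0 of these passed the FDR. Over all genes, the count changed between genotypes ran from 9 to 191 in Tfh cells (67 in the report), the lowest with B cell markers as a covariate and the highest with DESeq2, from 9 to 56 in non-Tfh (15), from 6 to 14 in GC B (8) and from 5 to 25 in non-GC B cells (7). In the interactions it ran from 1 to 76 in T cells (2) and from 0 to 6 in B cells (0). Depth limits Lag3, Cd160, Pdcd1 and Tnfrsf14 in B cells, where 0 to 53 counts stood behind a library's value.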

Other observations

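Of 11 binding partners of the members tested between WT Tfh and non-Tfh cells, 3 were higher and 5 lower, where 22.8% of all genes were higher and 20.4% lower. Tnfsf14 (LIGHT), a ligand of HVEM, had the largest change, at 30.2 CPM in Tfh and 1.52 CPM in non-Tfh cells (log2 fold change 4.31, standard error 0.21, adjusted p = 3.37e-10, edgeR's quasi-likelihood test). In WT GC B cells 6 of 9 tested partners were higher and 0 lower, where 24.8% of all genes were higher and 23.1% lower. The counts below stand against these same shares. Cd28, the costimulatory receptor that shares its ligands with CTLA-4, was at 22.2 CPM in WT GC B cells and 1.09 CPM in WT non-GC B cells (log2 fold change 4.42, standard error 0.61, adjusted p = 3.58e-05, edgeR). It was uneven among GC B libraries, from 8.42 to 55.1 CPM in WT and from 1.39 to 95.4 CPM in S1PR4-/- mice. The part of plasma cells in these values was not tested.

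Of 12 transcription factors known to act on these genes, 8 were higher and 0 lower in WT Tfh cells, and 4 were higher and 4 lower among 10 tested in WT GC B cells. Tox2 rose in both, from 4.20 to 486.5 CPM in T cells (log2 fold change 6.86, standard error 0.42) and from 0.0611 to 16.5 CPM in B cells (8.03, standard error 0.57, edgeR). Of the other inhibitory receptors, 8 of 15 were higher and 3 lower in WT Tfh cells. Among the higher ones was Cd22, a receptor of B cells and a listed B cell marker, at 179.3 against 8.17 CPM. In Tfh libraries Cd22 lay between 104.5 and 223.4 CPM in WT and averaged 193.7 CPM in S1PR4-/- mice. The part of B cells in the Cd22 values was not tested. In WT GC B cells 3 of 14 were higher and 6 lower. Of the signalling and trafficking genes, 3 of 10 were higher in WT Tfh cells, led by Ptpn11 (SHP-2), a phosphatase recruited by PD-1 and BTLA, at 107.9 against 48.1 CPM. In WT GC B cells 1 of 9 was higher and 2 lower, and Lrba, needed for the recycling of CTLA-4, was at 4.77 against 14.9 CPM. Between genotypes 0 genes of the 4 lists changed in any population by edgeR's quasi-likelihood test.

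Over the 8 group means of log2 CPM, the genes most like Pdcd1 among 8657 were Rnf128, Egln3 and Fhl2 (Pearson's r from 0.998 to 0.999), those most like Btla were Prkcb, St8sia4 and Calhm2 (0.987 to 0.99) and those most like Cd274 were Trove2, Nfkbia and BC037034 (0.984 to 0.986). These 8 points are groups of 4 populations and share libraries across genes.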
